A study of Mus musculus with 34 samples.

Results

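Embryoid bodies at day 4 were compared with the epiblast-like cells (EpiLC) at day 2 from which they had been formed. Titles and source names gave the groups, which hold 3 and 5 of the 34 RNA-seq libraries of the series. Both groups were made from CBMS1, a female mouse embryonic stem cell line with the strain label CBA/MsM. The cells had been grown in 2i/LIF, a medium that holds stem cells in the naive state, and were then turned into EpiLC over 2 days. For aggregation, 2000 EpiLC were seeded per well in round-bottomed plates in plain GK15 medium with no added factors, so that day 4 was reached after 2 days as aggregates, and the change of medium and the aggregation cannot be told apart. The labels name no transgene and no selection. They call the libraries biological replicates, and the titles give each library of a group its own date. Both groups are cultures of 1 cell line. The spread behind the limma p-values and SEs was taken from all 34 libraries of the series, not from these cultures alone. It includes that of epiblast stem cells and fibroblasts. In 2 day 2 libraries and 1 day 4 library a further label, the cell type, gives a day that differs from the title, and the title was used. The other groups of the series, used here for the estimate of the spread or as context, were CBMS1 stem cells at day 0, aggregates at days 3, 5, 6 and 7, epiblast stem cells grown with Activin and FGF, and embryonic fibroblasts of C57BL6 mice.

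EpiLC are a culture model of the early post-implantation epiblast, the tissue of the embryo that gives rise to all germ layers. In the embryo, Nodal, Wnt and BMP signals act on the posterior epiblast, where the primitive streak forms and mesoderm and endoderm arise, while inhibitors of these signals allow the anterior epiblast to become neural ectoderm. Cells that leave the naive state also install DNA methylation through the Dnmt3 enzymes, and many genes of the germ line are silenced in this way in cells of the body.

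The deposited values were FPKM, fragment counts scaled by transcript length and by the size of the library. Differences are given on the log2(FPKM + 1) scale as day 4 minus day 2, which understates the change of genes with low values. Calls needed a difference of at least 1 and a limma p under 0.05 after Benjamini-Hochberg adjustment over all 14595 genes tested, and "rose" and "fell" are used for called genes. Fragment totals were not known. The summed FPKM lay between 599388 and 640289 in 7 of the 8 libraries and at 734764 in day 4 replicate 1, in which the 71 ribosomal protein genes took 29.2% of the sum against 24.3% to 25.6% in the others. Correlations of log2(FPKM + 1) between libraries were 0.982 to 0.990 within day 2, 0.984 to 0.990 within day 4 and 0.954 to 0.962 between the groups. In bulk RNA, fewer cells of a type and less RNA per cell cannot be told apart.

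Of the 14595 genes, 962 were called (6.59%), of which 395 rose (2.71%) and 567 fell (3.88%). Counts within gene lists below are to be read beside these shares, and the lists were chosen with earlier results of these data known. The median difference over all genes tested was 0. The libraries of the groups did not overlap for 942 of the called genes, beside 6044 of all genes tested (41.4%). A difference of at least 2 was reached by 69 of the genes that rose and by 64 of those that fell. The labels name 2 sequencing projects. Project A holds 1 day 4 library against 3, and project B holds 2 against 2. Within project B 1047 genes were called, and 838 of the 962 main calls were kept. Within project A, where day 4 is 1 library, fewer of the main calls were kept than within project B.

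**Figure D1:**
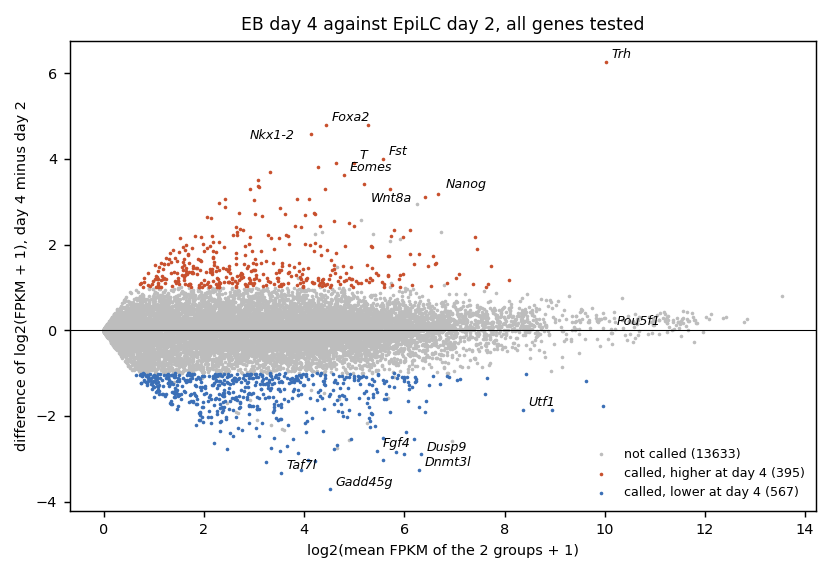
Each point is 1 of the 14595 genes tested, plotted by the log2 of its mean FPKM over both groups plus 1 (x axis) and by the difference of log2(FPKM + 1), EB day 4 minus EpiLC day 2 (y axis). The 395 genes that rose and the 567 that fell are coloured, and Trh, Foxa2, Nkx1-2, Fst and T lie at the top, with Gadd45g, Taf7l and Dnmt3l at the bottom and Pou5f1 near 0.

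The 12 largest rises among genes with a mean of at least 10 FPKM in the higher group included Trh, Foxa2, Cxx1c, Nkx1-2, Fst, T, Eomes, Glrx, Id3, Cabp7 and Grrp1. The 12 largest falls were Gadd45g, Taf7l, Dnmt3l, Cox7b2, Gpat2, Gm10324, Tex19.1, Pnma5, Dusp9, Rpl10l, Hormad1 and Rpl39l. Trh, which encodes the precursor of thyrotropin-releasing hormone (mm9 chr6:92192055-92194644), led the rises. It lay at 24.8, 47.9, 25.1, 20.3 and 18.5 FPKM in the 5 day 2 libraries and at 2004, 2033 and 2119 FPKM in the 3 day 4 libraries. The groups were far apart and the day 4 libraries were close to each other, with a difference of 6.26 (SE 0.35, limma adjusted p = 1.23e-14). Trh already averaged 1812 FPKM at day 3 and was at 695 FPKM at day 5. Among the falls, Gadd45g, a stress and growth arrest gene (mm9 chr13:51942044-51943843), lay at 32.7, 50.2, 22.3, 72.7 and 30.7 FPKM at day 2 and at 2.1, 1.89 and 2.03 FPKM at day 4. Every day 4 library was more than 10 times below every day 2 library, with a difference of -3.71 (SE 0.30, limma adjusted p = 3.35e-11). Values of Cxx1c, which has close copies, and of Rpl10l and Rpl39l, which resemble other ribosomal protein genes, are uncertain where fragments could be shared. They averaged 1.84 ± 1.09 FPKM at day 2 and 74.1 ± 8.12 FPKM at day 4 for Cxx1c, 111 ± 29 and 13.7 ± 1.98 FPKM for Rpl10l, and 98.9 ± 30.7 and 13 ± 6.42 FPKM for Rpl39l (mean ± SD, n = 5 and 3).

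The core pluripotency factors were still expressed at day 4, and Nanog was higher than at day 2. Pou5f1, which encodes the central pluripotency factor Oct4 (mm9 chr17:35642977-35647722), lay at 1097, 1062, 1107, 1150.2 and 1104 FPKM at day 2 and at 1076, 1141 and 1178 FPKM at day 4. The ranges overlapped, with a difference of 0.03 (SE 0.27, limma adjusted p = 0.954). It averaged 322 FPKM at day 5. Nanog, a homeobox factor of the naive epiblast that is also active in the posterior epiblast (mm9 chr6:122657507-122664651), lay at 15, 28.1, 22.6, 18.4 and 14.2 FPKM at day 2 and rose to 220.1, 155 and 175 FPKM at day 4. The lowest day 4 library was above the highest day 2 library by more than 5 times, with a difference of 3.19 (SE 0.27, limma adjusted p = 1.6e-10). At day 0 Nanog averaged 511 FPKM, at day 3 83.5 FPKM and at day 5 35.2 FPKM. Sox2 lay at 23 to 41.2 FPKM at day 2 and at 25.6 to 38.7 FPKM at day 4 and was not called.

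Of the 15 genes of general pluripotency tested, Nanog rose and 3 fell (median -0.05). Utf1, a chromatin factor of pluripotent cells, lay at 525, 500.3, 494, 568 and 499 FPKM at day 2 and at 152, 157 and 118 FPKM at day 4, with a difference of -1.86 (SE 0.23, limma adjusted p = 1.55e-07). Dppa4 fell from 121 ± 8.19 to 34.5 ± 5.85 FPKM and its partner Dppa2 from 39.6 ± 5.28 to 11.4 ± 2.62 FPKM (mean ± SD, n = 5 and 3). At day 3, Dppa4 averaged 131 and Dppa2 38.9 FPKM.

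Klf4 and Zfp42, factors of the naive state, averaged less in both groups than in the stem cells of day 0. Klf4 averaged 1.18 ± 0.644 FPKM at day 2 and 0.662 ± 0.154 FPKM at day 4 against 124 FPKM at day 0, Zfp42 22.2 ± 2.45 and 16.4 ± 3.52 FPKM against 364 FPKM, and neither was called. Of 16 naive genes tested, 1 rose and 4 fell, namely Dppa3, Dppa5a, Fgf4 and Pecam1. The other 11 were not called, and the median difference of the 16 was -0.07. Their summed level, to which genes with high values add most, was 788 to 1092 FPKM at day 2 and 238 to 469.9 FPKM at day 4. Fgf4, the FGF ligand that pluripotent cells secrete, lay at 81.3, 62.5, 79.6, 73 and 82.5 FPKM at day 2 and at 13.7, 8.96 and 7.71 FPKM at day 4, with a difference of -2.82 (SE 0.20, limma adjusted p = 2.89e-12). Its groups were separated by more than 4 times. Pecam1, an adhesion molecule of stem cells and endothelium, fell by 1.02, close to the minimum of 1, and the differences without day 2 replicate 3, 4 or 5 or without day 4 replicate 3, of -0.954, -0.976, -0.943 and -0.821, were not called. The gene that rose was Tdh, a threonine dehydrogenase of mouse stem cells, with 8.48 ± 1.34 FPKM at day 2 and 33.6 ± 4.61 FPKM at day 4, against 431 FPKM at day 0.

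Genes of the formative and primed epiblast did not move together. Of 19 tested, 2 rose and 5 fell, with a median difference of -0.63. Fgf5, the FGF ligand used as the marker of this stage (mm9 chr5:98683203-98706052), lay at 22.4, 30.9, 23.4, 20.6 and 17.6 FPKM at day 2 and at 52.2, 51.3 and 60.0 FPKM at day 4. The groups did not overlap, with a difference of 1.23 (SE 0.32, limma adjusted p = 0.00286). Nr6a1, a nuclear receptor that represses Pou5f1, rose from 15.1 ± 1.23 to 43.7 ± 1.78 FPKM. Pou3f1, a POU factor of the epiblast and neural plate, fell from 72.8 ± 9.27 to 28.7 ± 2.24 FPKM, the epithelial factor Grhl2 from 15.4 ± 1.26 to 6.1 ± 0.205 FPKM and Sox3 from 41.6 ± 1.74 to 20.2 ± 7.08 FPKM. Otx2, a homeobox factor of the epiblast and forebrain, lay at 52.8, 58.6, 62.5, 55.3 and 48.8 FPKM at day 2 and at 41.4, 26.4 and 20.4 FPKM at day 4. Its groups did not overlap, but the difference of -0.95 missed the minimum of 1 (SE 0.26, limma adjusted p = 0.0049). Day 4 replicate 1 decided 2 calls, since without it Otx2 differed by -1.22 and was called, and Sox3 by -0.801 and was not.

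**Figure D2:**
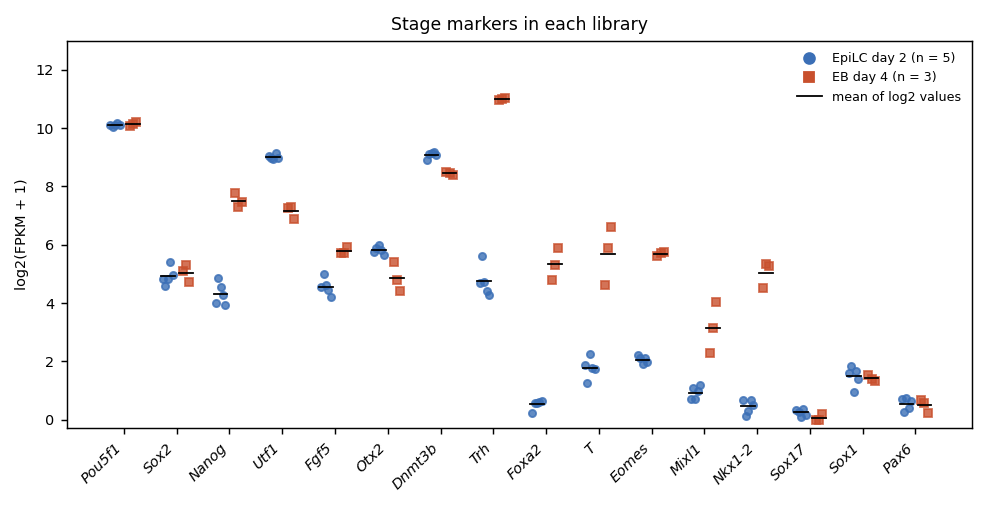
Each point is 1 library, on an axis of log2(FPKM + 1), for 16 stage markers on the x axis, with 5 EpiLC day 2 libraries as circles, 3 EB day 4 libraries as squares and the mean of the log2 values as a line. Pou5f1 and Sox2 overlapped between the groups, Nanog, Trh, Foxa2, T and Eomes were higher in every day 4 library, and Sox17, Sox1 and Pax6 were low in both groups.

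Several listed genes of the primitive streak rose at day 4, beside 2.71% of all genes tested. Of 17 streak and mesoderm genes tested, 7 rose and 0 fell, namely T, Mixl1, Eomes, Fgf8, Gsc, Apln and Aplnr (median 0.51). T, the brachyury T-box factor of the streak (mm9 chr17:8627288-8635361), lay at 2.68, 1.4, 3.81, 2.4 and 2.35 FPKM at day 2 and at 23.6, 57.7 and 95.7 FPKM at day 4. Day 4 replicate 1 was the lowest of its group and was still over 6 times the highest day 2 library, with a difference of 3.91 (SE 0.37, limma adjusted p = 8.99e-10). Eomes, the T-box factor of streak cells that give rise to endoderm and heart mesoderm (mm9 chr9:118387307-118395250), lay at 3.62, 3.3, 2.74, 3.35 and 2.9 FPKM at day 2 and at 48.1, 51.3 and 52.3 FPKM at day 4. The day 4 libraries were nearly equal, with a difference of 3.63 (SE 0.20, limma adjusted p = 1.71e-14). The 2 genes differed in their later levels, since T averaged 528 FPKM and Eomes 9.39 FPKM at day 5.

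Mixl1, a homeobox factor of the streak, lay at 0.625, 1.12, 0.617, 0.977 and 1.27 FPKM at day 2 and at 3.93, 7.78 and 15.4 FPKM at day 4. Gsc, the homeobox factor of the organizer, rose from 0.262 ± 0.222 to 4.78 ± 1.23 FPKM, and Apln, the ligand of the apelin receptor, from 1.06 ± 0.201 to 13.1 ± 5.13 FPKM. Aplnr, the receptor, was at 0 to 0.0515 FPKM at day 2 and at 1.13, 2.22 and 2.81 FPKM at day 4. Apela, which encodes another ligand of this receptor and was chosen after its values were seen, rose from 75.7 ± 29.3 to 269.8 ± 5.83 FPKM. In T, Mixl1, Apln and Aplnr, day 4 replicate 1 was the lowest of the 3 libraries. This is also the library with the larger share of ribosomal protein genes and with a cell type field that names another day, and the part of either in these values was not tested. Without it, T differed by 4.45 and the list again had 7 rises and 0 falls.

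Tbx6, Mesp1 and Evx1 were near 0 in both groups, while Etv2, of early blood and vessel progenitors, and the muscle gene Actc1 rose, as given below. Tbx6, a factor of paraxial mesoderm, averaged 0.379 ± 0.236 FPKM at day 2 and 0.31 ± 0.21 FPKM at day 4, Mesp1, a factor of early cardiac mesoderm, 0.118 ± 0.171 and 0.213 ± 0.215 FPKM, and Evx1, a factor of the late streak, 0.205 ± 0.103 and 0.326 ± 0.219 FPKM. Mesp1 did not pass the filter of at least 1 FPKM in at least 3 libraries, and Tbx6 and Evx1 were not called.

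Foxa2, a forkhead factor of the anterior streak, node and endoderm (mm9 chr2:147868613-147872705), had the second largest rise. It lay at 0.158, 0.501, 0.487, 0.537 and 0.543 FPKM at day 2 and at 26.7, 38.3 and 58.1 FPKM at day 4, with a difference of 4.80 (SE 0.35, limma adjusted p = 5.07e-12). No day 2 library reached 1 FPKM. Of 11 endoderm genes tested, 3 rose and 0 fell, namely Foxa2, Trh and Cer1, which encodes a secreted antagonist of Nodal and was at 1.17, 2.44 and 4.43 FPKM at day 4. Sox17, a factor of definitive endoderm, lay at 0.264, 0.195, 0.0758, 0.282 and 0.126 FPKM at day 2 and at 0, 0 and 0.139 FPKM at day 4. The level of Sox17 at day 4 was thus near 0 while Foxa2 was high. Gata4 averaged 0.176 ± 0.134 FPKM at day 4 and Gata6 0.149 ± 0.0392 FPKM. Of 6 visceral endoderm genes tested, 0 were called by limma and 0 had an unadjusted p under 0.05, and their summed level was 12.5 to 18.1 FPKM at day 2 and 13.9 to 16.6 FPKM at day 4. Afp was listed at 0 in all 3 day 4 libraries.

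**Figure D3:**
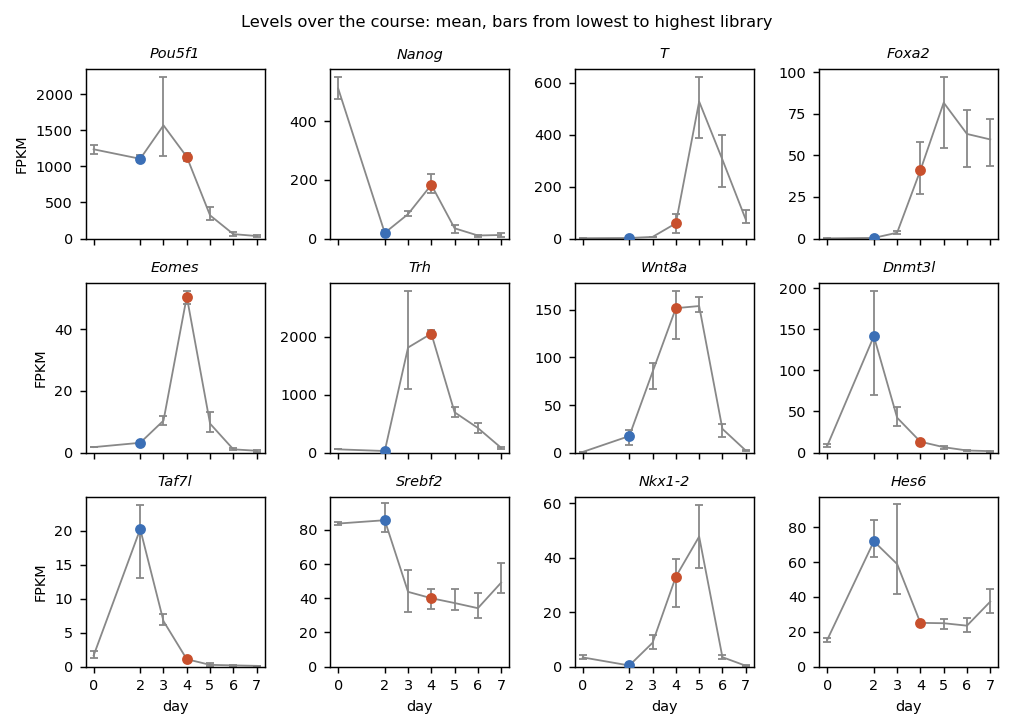
Each panel shows the mean FPKM of 1 gene (y axis) at days 0, 2, 3, 4, 5, 6 and 7 (x axis), with bars from the lowest to the highest library and coloured points for EpiLC day 2 and EB day 4. The means of Eomes and Trh were highest at day 4 among the days shown, that of T was higher at day 5 than at day 4, and those of Dnmt3l and Taf7l were highest at day 2.

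Among genes of the Nodal pathway, the ligand itself was close in both groups. Nodal lay at 60.9, 55.2, 61.1, 62.8 and 63.1 FPKM at day 2 and at 53.2, 53.7 and 53.8 FPKM at day 4, a difference of -0.17 (SE 0.29, limma adjusted p = 0.703). Every day 4 library was slightly below every day 2 library. Of 21 members tested, 2 rose and 2 fell. Fst, follistatin, which binds Activin (mm9 chr13:115242470-115249159), lay at 3.35, 2.33, 6.52, 5.55 and 6.03 FPKM at day 2 and at 65.6, 105 and 95.1 FPKM at day 4. Its groups did not overlap, with a difference of 4.00 (SE 0.25, limma adjusted p = 1.47e-13). Lefty1, a feedback inhibitor of Nodal, fell from 285 ± 66.3 to 103 ± 35.5 FPKM and the ligand Gdf3 from 64 ± 5.47 to 16.2 ± 4.23 FPKM. Without day 4 replicate 1, Lefty1 differed by -1.22 with a limma adjusted p of 0.0651. Lefty2 lay at 54.9 to 107 FPKM at day 2 and 52.7 to 71.8 FPKM at day 4, and its ranges overlapped.

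More genes of Wnt ligands, secretion and receptors rose than fell. Of 18 tested, 5 rose and Fzd7 fell, with a median of 0.38. Wnt8a, a ligand of the posterior epiblast, lay at 17.7, 7.73, 24.1, 16.3 and 21.1 FPKM at day 2 and at 119, 169 and 167 FPKM at day 4, with a difference of 3.12 (SE 0.35, limma adjusted p = 2.74e-08). Porcn, which adds the lipid that Wnt proteins need for secretion, lay at 3.7, 1.56, 2.25, 4.49 and 2.02 FPKM at day 2 and at 26.5, 32.1 and 30.0 FPKM at day 4, with a difference of 3.06 (SE 0.22, limma adjusted p = 2.58e-12). Wls, the carrier of Wnt proteins to the cell surface, rose from 2.28 ± 0.634 to 9.91 ± 0.372 FPKM. Wnt11 rose from 0.458 ± 0.0997 to 3.62 ± 0.723 FPKM, and Rspo3, a secreted enhancer of Wnt signalling, from 0.0983 ± 0.0928 to 2.29 ± 0.424 FPKM. Wnt3, the ligand needed for the streak, lay at 6.95 to 10.4 FPKM at day 2 and at 8.12 to 12.3 FPKM at day 4 and was not called. The receptor Fzd7 fell from 57 ± 4.77 to 24.7 ± 3.68 FPKM.

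Of 17 Wnt target and feedback genes, Axin2, Sp5 and Cdx1 rose and Tcf7l1 fell (median 0.27). Axin2, the feedback scaffold of the pathway, lay at 2.32, 3.48, 3.4, 3.37 and 3.19 FPKM at day 2 and at 8.95, 13.4 and 11.4 FPKM at day 4. Sp5, a zinc finger target of Wnt signalling, lay at 0.0957, 0.204, 0.231, 0.113 and 0.227 FPKM at day 2 and at 3.46, 8.72 and 7.81 FPKM at day 4. Both were higher in every day 4 library, Axin2 with a difference of 1.55 (SE 0.18, limma adjusted p = 5.45e-08) and Sp5 with a difference of 2.63 (SE 0.35, limma adjusted p = 4.74e-07). Tcf7l1, the Tcf factor that represses Wnt targets, fell from 32.8 ± 3.44 to 13.8 ± 2.59 FPKM.

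The promoters of T and Sp5 are shown because both genes are known targets of Wnt signalling, whose Tcf factors bind the core CTTTGA, and because they held it among 6 Wnt genes looked up. The sequences are 300 bases each, from 250 before to 50 after the start of transcription, from RefSeq on build GRCm38.p6 (not the build of the expression table), at chr17:8434173-8434472 on the plus strand for T and chr2:70474673-70474972 on the plus strand for Sp5. Capitals mark CTTTGA or its reverse complement TCAAAG.
T: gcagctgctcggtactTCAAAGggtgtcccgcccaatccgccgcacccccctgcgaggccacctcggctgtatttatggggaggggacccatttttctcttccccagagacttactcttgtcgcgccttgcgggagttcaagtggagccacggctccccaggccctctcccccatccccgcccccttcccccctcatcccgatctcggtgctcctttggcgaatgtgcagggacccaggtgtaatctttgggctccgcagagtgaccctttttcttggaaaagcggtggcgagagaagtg
Sp5: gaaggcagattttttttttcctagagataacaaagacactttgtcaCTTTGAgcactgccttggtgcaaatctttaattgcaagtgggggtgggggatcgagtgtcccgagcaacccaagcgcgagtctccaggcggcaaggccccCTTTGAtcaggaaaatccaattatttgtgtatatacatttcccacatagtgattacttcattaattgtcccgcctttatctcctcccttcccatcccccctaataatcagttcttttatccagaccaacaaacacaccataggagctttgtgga
The core occurred 1 time at T and 2 times at Sp5, and it was absent from the windows of Axin2 and Tcf7l1. Cdx1 and Wnt8a had no entry. Of all 32851 promoters of the table, 16.0% held it on either strand. The letters are a description of the window and not a site of binding, and the motif was chosen after the values had been seen.

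FGF ligands moved in both directions. Of 12 FGF ligands and receptors tested, 3 rose (Fgf5, Fgf8 and Fgf17) and 2 fell (Fgf4 and Fgf13). Fgf8, a ligand of the streak, lay at 18, 9.5, 33.4, 37.3 and 20.4 FPKM at day 2 and at 94.8, 132 and 112 FPKM at day 4, with a difference of 2.33 (SE 0.42, limma adjusted p = 4.93e-05). Within project B its difference was 2.10 with a limma adjusted p of 0.0969. Fgf17 rose from 1.03 ± 0.596 to 9.52 ± 1.16 FPKM. Among 12 feedback and target genes of ERK, the inhibitors Spry2 and Il17rd rose, from 15.9 ± 2.35 to 63.7 ± 12.1 FPKM and from 6.21 ± 0.743 to 28.8 ± 5.13 FPKM, while Dusp4 fell from 33.7 ± 10.3 to 11.8 ± 2.01 FPKM and Spry1 from 12.3 ± 1.88 to 5.57 ± 0.129 FPKM. The difference of -1.01 for Spry1 was at the limit, and without day 2 replicates 1, 2 or 3 or day 4 replicate 1 it was -0.987, -0.999, -0.948 and -0.995 and was not called. Dusp9, an ERK phosphatase on chromosome X (mm9 chrX:70884780-70888853), lay at 148, 111, 135, 163 and 146 FPKM at day 2 and at 19.2, 18.8 and 15.8 FPKM at day 4. Its groups were separated by more than 5 times, with a difference of -2.90 (SE 0.18, limma adjusted p = 1.51e-13). Of 12 immediate early genes, Myc fell, from 28.5 ± 4.11 to 9.17 ± 1.94 FPKM.

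Of 18 BMP pathway genes, 2 rose and 0 fell. Id3, a target of BMP signalling that blocks basic helix-loop-helix factors (mm9 chr4:135699737-135701307), lay at 6.03, 3.88, 5.3, 6.45 and 4.43 FPKM at day 2 and at 48.4, 73.1 and 76.5 FPKM at day 4, with a difference of 3.42 (SE 0.20, limma adjusted p = 7.37e-14). Its lowest day 4 library was above every day 2 library. The other was Chrd, chordin, an antagonist of BMP ligands, which lay at 2.36, 2.47, 3.11, 5.18 and 2.59 FPKM at day 2 and at 5.01, 13.3 and 18.8 FPKM at day 4. Its ranges overlapped through day 4 replicate 1. The ligand Bmp4 averaged 2.1 ± 0.881 FPKM at day 2 and 1.02 ± 0.27 FPKM at day 4 and was not called.

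Genes of the Notch pathway fell more often than they rose, 5 against 1 of 15 tested. Dll1, a Notch ligand, lay at 2.73, 4.29, 5.58, 6.28 and 6.11 FPKM at day 2 and at 0.507, 0.589 and 0.57 FPKM at day 4, with a difference of -1.91 (SE 0.25, limma adjusted p = 4.24e-07). The related ligand Dll3 fell from 10.3 ± 1.06 to 3.03 ± 0.198 FPKM, the ligand Jag2 from 11.8 ± 2.19 to 3.9 ± 0.537 FPKM, the receptor Notch3 from 19 ± 3.4 to 6.75 ± 1.21 FPKM and Hes6, an inhibitor of Hes1, from 71.9 ± 7.98 to 25.1 ± 0.643 FPKM. Hes1, the target that represses neural differentiation, rose from 17.3 ± 8.36 to 37.7 ± 7 FPKM, and its day 2 libraries ranged from 10.3 to 29.2 FPKM.

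Of 13 retinoic acid genes, 3 rose and 2 fell. Dhrs3, which turns retinal back into retinol, lay at 4.48, 2.16, 4.89, 3.05 and 3.65 FPKM at day 2 and at 19.9, 20.6 and 19.6 FPKM at day 4, with a difference of 2.21 (SE 0.28, limma adjusted p = 1.92e-07). Every day 4 library was above every day 2 library. Cyp26a1, which degrades retinoic acid, rose from 0.0606 ± 0.0555 to 2.67 ± 1.77 FPKM. The binding protein Crabp2 fell from 41.5 ± 4.56 to 10.5 ± 2.78 FPKM and the receptor Rarg from 59 ± 7.29 to 28.1 ± 2.09 FPKM, where the difference was -0.988, -0.998 and -0.975 and was not called without day 2 replicate 1, day 2 replicate 4 or day 4 replicate 1. Aldh1a2, which makes retinoic acid in mesoderm, averaged 1.04 ± 0.429 FPKM at day 2 and 0.0986 ± 0.171 FPKM at day 4 and was not called, but differed by -1.01 and was called without day 4 replicate 2. Of 11 sonic hedgehog genes, the receptor Ptch1 fell, from 12.5 ± 2.35 to 4.65 ± 0.214 FPKM.

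Of 14 Hox and Cdx genes, 5 rose and 0 fell, and among those that rose were Hoxa2, Hoxb1 and Hoxb2, Hox genes of the hindbrain, and the posterior factor Cdx1. Day 4 replicate 1 was the lowest of its group in each of these 4 genes. Hoxb1 was at 1.57, 7 and 3.61 FPKM and Cdx1 at 1.56, 10.5 and 9.64 FPKM at day 4. Within project A, in which that library is the only one of day 4, the differences of Hoxb1, Hoxb2 and Cdx1 were 0.998, 0.829 and 0.643 and were not called, nor was that of Hoxa2, and 1 of the 14 genes rose there. With a block by replicate number 2 rose. Cdx2, a posterior factor, lay at 0.534, 0.162, 0.378, 0.176 and 0.0892 FPKM at day 2 and at 0.163, 1.42 and 0.95 FPKM at day 4 and was not called. Nkx1-2, a homeobox factor of the streak and caudal epiblast (mm9 chr7:139787922-139791320), lay at 0.606, 0.0916, 0.215, 0.606 and 0.41 FPKM at day 2 and at 21.9, 39.7 and 37.6 FPKM at day 4, with a difference of 4.59 (SE 0.25, limma adjusted p = 7.17e-15).

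Sox1 and Pax6, factors of neural progenitors, were low in both groups. Sox1 lay at 2, 2.61, 0.905, 2.2 and 1.62 FPKM at day 2 and at 1.87, 1.61 and 1.52 FPKM at day 4, and Pax6 at 0.616, 0.205, 0.679, 0.303 and 0.548 FPKM and 0.593, 0.492 and 0.171 FPKM. Both had overlapping ranges and were not called, and at day 7 they averaged 16.6 and 4.35 FPKM. Of 15 neural progenitor genes tested, Fabp7 and Zfp521 rose, at 3.73 ± 0.656 and 1.72 ± 0.267 FPKM at day 4. The median difference of the 15 was -0.05, and 13 were called in neither direction. Their summed level, to which genes with high values add most, was 27.8 to 42.7 FPKM at day 2. It was 52.1 to 62.8 FPKM at day 4, higher in every day 4 library. Of 12 neuronal genes, Neurod1 fell, from 4.6 ± 0.65 to 1.12 ± 0.201 FPKM. Of 7 trophoblast genes, Ascl2 and Esx1 fell, from 4.97 ± 1.22 to 0.642 ± 0.672 FPKM and from 1.74 ± 0.572 to 0.144 ± 0.0579 FPKM. The surface keratins Krt8 and Krt19 rose, Krt8 from 42.8 ± 7.55 to 146 ± 29.4 FPKM, and Msx1 fell from 7.89 ± 1.13 to 1.96 ± 0.273 FPKM.

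**Figure D4:**
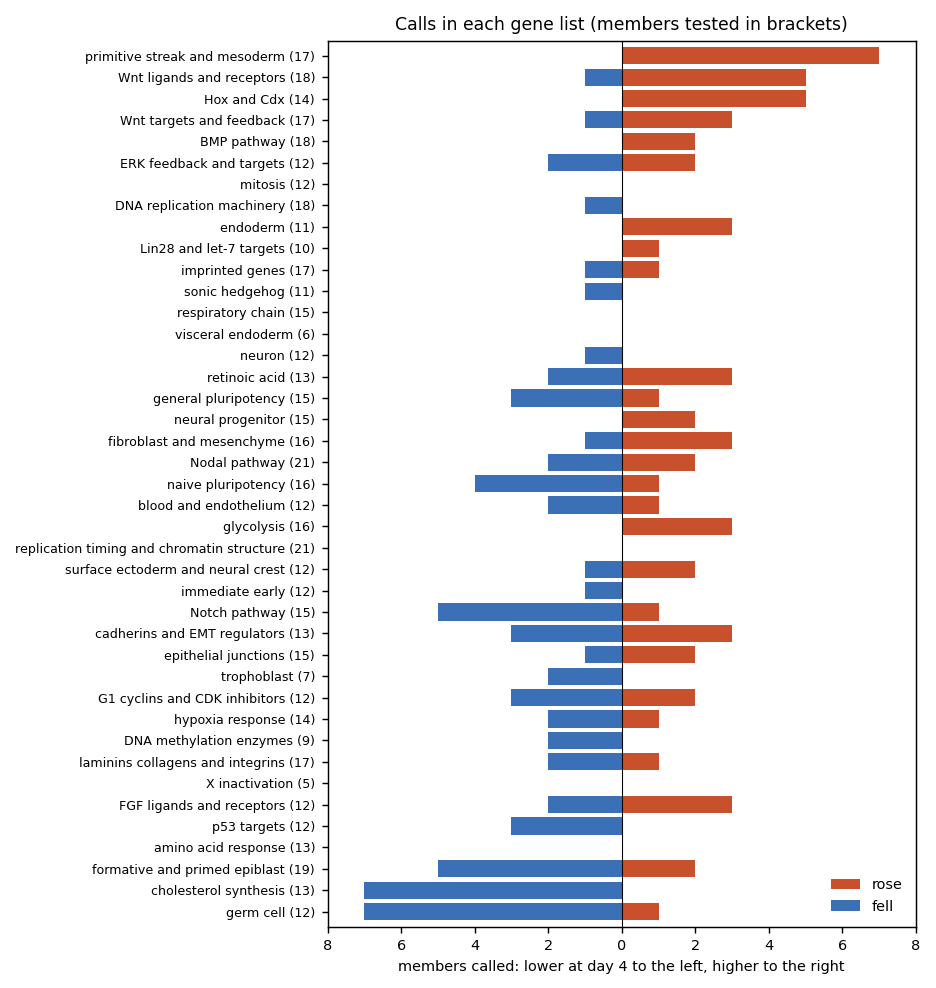
For each of 41 gene lists (y axis, members tested in brackets, ordered by median difference) bars give the number of members that rose (to the right) and fell (to the left) on the x axis. The streak list had 7 rises, and the cholesterol synthesis and germ cell lists had 7 falls each.

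Most of the germ cell genes listed fell, beside 3.88% of all genes tested. Of 12 germ cell genes tested, 7 fell and 1 rose, also without day 2 replicate 2 (median -1.25), and the summed level was 60.0 to 94.3 FPKM at day 2 and 34.3 to 35.5 FPKM at day 4. The members that fell were Ddx4, Dazl, Mael, Sycp3, Tex101, Taf7l and Rhox9. The 1 that rose was Kit, a receptor also found outside the germ line, from 2.88 ± 0.478 to 11.4 ± 2.64 FPKM. Taf7l, a testis form of a TFIID subunit on chromosome X (mm9 chrX:130994655-131011029), lay at 23.4, 13.1, 23.8, 19.9 and 21.2 FPKM at day 2 and at 1.21, 0.805 and 1.22 FPKM at day 4, with a difference of -3.33 (SE 0.15, limma adjusted p = 1.43e-16). Ddx4, the RNA helicase Vasa of germ cells, lay at 10.0, 9.85, 9.12, 8.08 and 9.02 FPKM at day 2 and at 2.71, 1.7 and 1.52 FPKM at day 4. Dazl, an RNA-binding protein needed for germ cells, lay at 9.32, 3.45, 8.58, 8.33 and 6.41 FPKM at day 2 and at 1.31, 0.464 and 0.727 FPKM at day 4. The groups did not overlap in any of these 3 genes.

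Mael, a piRNA pathway factor, fell from 15.6 ± 4.44 to 3.29 ± 0.452 FPKM and Sycp3, of the synaptonemal complex, from 9.14 ± 1.62 to 3.4 ± 1.28 FPKM. Among the largest falls were also Tex19.1 and Hormad1, known for roles in transposon control and in meiosis, and Gpat2, needed for piRNA formation in testis. Tex19.1 lay at 94.3, 32.8, 98.4, 95.5 and 103 FPKM at day 2 and at 9.42, 8.59 and 8.37 FPKM at day 4, with a difference of -3.02 (SE 0.23, limma adjusted p = 1.12e-11). Hormad1 fell from 24.9 ± 9.43 to 2.36 ± 0.764 FPKM and Gpat2 from 15.8 ± 3.92 to 0.975 ± 0.313 FPKM. Sohlh2, Hsf2bp and Tdrd12, chosen after their values were seen, averaged 19.2 ± 5.25, 16.7 ± 5.49 and 25.3 ± 4.2 FPKM at day 2 and 1.83 ± 0.649, 1.58 ± 0.571 and 4.94 ± 1.83 FPKM at day 4. In Taf7l, Dazl, Mael, Tex19.1, Hormad1 and Gpat2, day 2 replicate 2 was the lowest of the day 2 libraries and still above every day 4 library. At day 3, Taf7l averaged 6.69 and Tex19.1 32 FPKM.

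**Figure D5:**
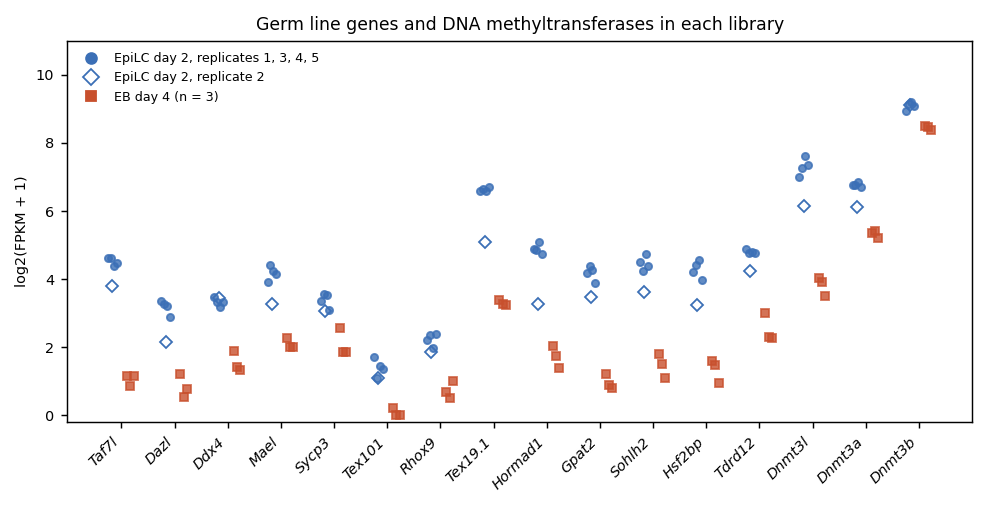
Each point is 1 library on an axis of log2(FPKM + 1), for 13 germ line genes and Dnmt3l, Dnmt3a and Dnmt3b on the x axis, with EpiLC day 2 as circles, its replicate 2 as an open diamond, and EB day 4 as squares. Every day 4 library was below every day 2 library for each gene shown, and replicate 2 was the lowest day 2 library for Tex19.1, Hormad1, Dazl and Dnmt3l.

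The promoters of Taf7l, Mael, Ddx4 and Hormad1 are shown because germ line genes are known to be silenced at CpG-rich promoters in which the motif CACGTG, an E-box, can occur. These 4 were chosen because they hold it. The sequences are 300 bases each in the frame given above, from RefSeq on GRCm38.p6, at chrX:134476441-134476740 (minus strand), chr1:166238695-166238994 (minus strand), chr13:112652261-112652560 (minus strand) and chr3:95559427-95559726 (plus strand). Capitals mark CACGTG, which is its own reverse complement.
Taf7l: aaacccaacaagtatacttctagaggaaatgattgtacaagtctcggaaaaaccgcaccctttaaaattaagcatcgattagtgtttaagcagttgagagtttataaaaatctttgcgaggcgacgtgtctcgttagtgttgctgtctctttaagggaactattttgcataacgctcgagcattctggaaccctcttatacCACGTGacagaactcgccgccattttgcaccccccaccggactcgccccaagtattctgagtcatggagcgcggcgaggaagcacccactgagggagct
Mael: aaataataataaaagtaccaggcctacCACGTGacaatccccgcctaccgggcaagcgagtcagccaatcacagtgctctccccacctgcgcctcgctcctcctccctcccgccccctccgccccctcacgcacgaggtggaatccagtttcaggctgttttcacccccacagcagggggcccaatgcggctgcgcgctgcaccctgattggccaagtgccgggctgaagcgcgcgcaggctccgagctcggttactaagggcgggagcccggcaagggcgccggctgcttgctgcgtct
Ddx4: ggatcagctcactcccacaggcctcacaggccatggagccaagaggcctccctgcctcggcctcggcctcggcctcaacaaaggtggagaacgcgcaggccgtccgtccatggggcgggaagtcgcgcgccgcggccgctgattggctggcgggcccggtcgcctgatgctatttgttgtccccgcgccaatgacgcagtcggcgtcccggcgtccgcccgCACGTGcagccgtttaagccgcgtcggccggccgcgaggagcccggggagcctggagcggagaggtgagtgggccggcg
Hormad1: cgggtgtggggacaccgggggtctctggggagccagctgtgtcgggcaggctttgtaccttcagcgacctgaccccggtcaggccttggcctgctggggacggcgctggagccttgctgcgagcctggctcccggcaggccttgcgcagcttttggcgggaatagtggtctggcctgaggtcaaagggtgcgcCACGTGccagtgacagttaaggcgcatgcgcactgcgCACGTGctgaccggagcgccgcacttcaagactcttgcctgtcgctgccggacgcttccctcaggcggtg
Of the 7 fallen germ cell genes, 6 had an entry in the table and 4 of these held CACGTG. Of all 32851 promoters, 7.15% held it. With Tex19.1, Hormad1 and Gpat2, 9 of 10 genes had an entry, 5 held the motif and all 9 had between 15 and 38 CpG dinucleotides, above the median of 7 over all promoters. CACGTG itself contains a CpG, and its share among promoters of like CpG content was not taken. The motif was searched after the values had been seen, and a match is a description of the letters only.

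Of the 9 DNA methylation enzymes and cofactors tested, 2 fell and 0 rose. Dnmt3l, the cofactor of the de novo methyltransferases (mm9 chr10:77505032-77526367), lay at 127, 69.7, 153, 196 and 161 FPKM at day 2 and at 15.3, 14 and 10.3 FPKM at day 4, with a difference of -3.26 (SE 0.28, limma adjusted p = 1.32e-10). The groups did not overlap. Dnmt3a fell from 100.3 ± 18.3 to 39.2 ± 3.05 FPKM. Dnmt3b, the main de novo enzyme of the epiblast, lay at 484, 553, 568, 586 and 537 FPKM at day 2 and at 363, 354 and 335 FPKM at day 4, so that its groups did not overlap while the difference of -0.63 missed the minimum of 1 (SE 0.18, limma adjusted p = 0.00644). Tet1, which oxidizes methylcytosine, averaged 24 ± 1.36 and 11.7 ± 0.409 FPKM, with a difference of -0.98 that also missed the minimum and passed it, at -1.002 and -1.006, without day 2 replicate 1 or day 4 replicate 3.

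Among cadherins and regulators of the epithelial to mesenchymal transition, 3 of 13 rose and 3 fell. A cadherin was among those that rose, and another was among those that fell. Cdh1, E-cadherin, lay at 251, 284, 234, 254 and 269 FPKM at day 2 and at 184, 213 and 222 FPKM at day 4. Its groups did not overlap, but it was not called. Cdh2, N-cadherin, averaged 1.88 ± 0.236 and 4.44 ± 1.19 FPKM, with a difference of 0.90 that missed the minimum of 1 and passed it, at 1.06, without day 4 replicate 1. Zeb2, a repressor of Cdh1, rose from 0.182 ± 0.0506 to 2.78 ± 0.393 FPKM, and Esrp2, a splicing factor of epithelia, fell from 7.16 ± 1.07 to 1.17 ± 0.24 FPKM. Fn1, fibronectin, and Nid2, a basement membrane protein, fell, from 54.8 ± 15.7 to 21.8 ± 4.15 FPKM and from 55.2 ± 3.83 to 24.6 ± 2.45 FPKM.

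Of 16 fibroblast and mesenchyme genes, Tagln, Acta2 and Vim rose and Fn1 fell (median -0.06). Tagln, transgelin, lay at 19.4, 18.9, 5, 4.46 and 4.55 FPKM at day 2 and at 88.1, 94.1 and 94.1 FPKM at day 4, with a difference of 3.31 (SE 0.33, limma adjusted p = 3.34e-09). Its day 2 libraries lay at 2 levels, with replicates 1 and 2 above the other 3. Acta2, smooth muscle actin, rose from 0.354 ± 0.117 to 3.15 ± 0.156 FPKM and the intermediate filament gene Vim from 29.1 ± 5.42 to 71.7 ± 14.4 FPKM. The muscle genes Actc1, Acta1 and Cnn1, chosen after their values were seen, rose from 0.426 ± 0.363, 0.808 ± 0.739 and 3.65 ± 1.89 FPKM to 12.6 ± 1.06, 13.2 ± 2.76 and 22.4 ± 1.83 FPKM. The summed level of the 16 listed genes was 104 to 128 FPKM at day 2 and 179 to 214 FPKM at day 4. The collagen genes Col1a1 and Col1a2, which define fibroblasts, averaged 1.03 ± 0.394 and 0.611 ± 0.452 FPKM at day 4 and were not called.

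Most of the listed genes of cholesterol synthesis fell, beside 3.88% of all genes tested. Of 13 genes tested, 7 fell and 0 rose, with a median of -1.02 and a summed level of 1466 to 1733 FPKM at day 2 and 853 to 892 FPKM at day 4. Srebf2, the transcription factor of the pathway (mm9 chr15:81977699-82035390), lay at 78.6, 95.8, 85.5, 84.9 and 83.5 FPKM at day 2 and at 34, 45.1 and 40.9 FPKM at day 4, with a difference of -1.09 (SE 0.15, limma adjusted p = 8.08e-07). The groups did not overlap. Insig1, a regulator of Srebf2 processing, fell from 128 ± 33.5 to 50.8 ± 9.75 FPKM. The enzymes Fdps, Lss and Mvd also fell, by 1.02, 1.06 and 1.09. These falls and that of Srebf2 were close to the minimum of 1. The count was 5 without day 2 replicate 2 or day 4 replicate 2, when Fdps and Mvd were not called, and 6 without day 4 replicate 1 or 3, with Srebf2 the call lost without replicate 1. With a block by culture course, in which day 4 libraries go with day 2 libraries dated 2 days earlier, 4 of the 13 fell. That fit took the libraries of days 2 to 7. With a block by replicate number, fitted on the 2 groups only, 5 fell. With 1 library left out, the differences lost lay between -0.966 and -0.994. Srebf2 averaged 43.7 FPKM at day 3, 1 day after aggregation began.

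Of 16 genes of glycolysis, 3 rose and 0 fell. The glucose transporter Slc2a3 lay at 20.8, 29.4, 23.3, 20.1 and 16.4 FPKM at day 2 and at 114, 99.8 and 93.4 FPKM at day 4, with a difference of 2.19 (SE 0.23, limma adjusted p = 1.18e-08). Slc2a1 rose from 73.2 ± 11.4 to 156 ± 7.14 FPKM and the lactate dehydrogenase gene Ldhb from 106 ± 4.13 to 224 ± 21.8 FPKM, a difference that was 0.991 and not called without day 4 replicate 1. With quantile normalization and within project B, 1 of the 16 rose, and Slc2a1 and Ldhb were not called. Of 12 p53 targets, Mdm2, Eda2r and Plk2 fell, and Mdm2, the ubiquitin ligase of p53, lay at 74.5, 66, 58, 55.8 and 84.4 FPKM at day 2 and at 29.5, 28.9 and 28.8 FPKM at day 4. Among 12 G1 cyclins and inhibitors, Ccnd2 and Cdkn1b rose and Cdkn1c, Cdkn2a and Cdkn2b fell, with Cdkn1b, p27, at 10.8 ± 1.69 and 25.7 ± 1.32 FPKM and Cdkn2a at 32.8 ± 6.16 and 6.94 ± 5.53 FPKM. Of 18 genes of DNA replication, the licensing factor Cdt1 fell, from 77.8 ± 8.28 to 37.2 ± 4.71 FPKM, and of 12 mitosis genes 0 were called and 0 had an unadjusted limma p under 0.05. Single libraries decided the calls of Plk2 and Cdkn2b (-0.962 and -0.967 without day 2 replicate 5), of Cdkn2b (-0.958 without day 4 replicate 2) and of Cdt1 (-0.969 without day 4 replicate 3). The let-7 target Hmga2 rose from 3.65 ± 0.761 to 13.1 ± 1.46 FPKM, while Lin28a, which blocks let-7, lay at 190.0 to 245 FPKM at day 2 and 186 to 235 FPKM at day 4.

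Of 21 genes of replication timing and chromatin structure, 0 were called by limma. An unadjusted p under 0.05 was reached by 8 of them (38.1%), beside 6433 of all genes tested (44.1%). Rif1, a regulator of replication timing, lay at 61.4, 57.6, 63.4, 57 and 65.4 FPKM at day 2 and at 60.5, 52.1 and 50.1 FPKM at day 4, and Ctcf, a factor of chromatin loops, at 53.7, 61.4, 48.8, 52.9 and 57.3 FPKM and 47.7, 47.9 and 49.7 FPKM. Both had overlapping ranges, with differences of -0.17 (SE 0.15) and -0.17 (SE 0.10).

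Genes on chromosome X were called more often in both directions than those on autosomes. Of 552 X-linked genes tested, 34 rose and 52 fell (15.6% called), and of 14039 autosomal genes 361 rose and 515 fell (6.24%); the difference between these shares was not tested. The median FPKM of X-linked genes divided by that of autosomal genes was 0.949, 0.768, 0.965, 0.876 and 0.891 in the day 2 libraries and 0.926, 0.801 and 0.813 in the day 4 libraries. These ranges overlapped, with means of 0.890 ± 0.0779 and 0.846 ± 0.0688 (SD, n = 5 and 3) and a two-sided exact permutation p of 0.5, where the smallest possible is 0.0357. Xist, a non-coding RNA expressed from the inactive X, lay at 36.7, 43.4, 64.2, 43.8 and 54.2 FPKM at day 2 and at 35.3, 38 and 32.3 FPKM at day 4. Its ranges overlapped, with a difference of -0.43 and an SE of 1.05. That SE draws on the spread within all groups of the series and does not describe the spread of these libraries alone. Reads of Xist and of its antisense partner Tsix cannot be told apart where the strand was not used.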

How the data were processed

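The authors deposited 1 table of FPKM per gene. The submitters' processing notes name the trimmer cutadapt (1.4.1), the aligner HISAT2 (2.0.4), Cufflinks (2.2.1), Cuffdiff and the genome mm9. Libraries were made with a stranded kit for messenger RNA, per the labels' protocols. Use of the strand, filters and scaling between libraries are not given in the sources used here. The table holds 24103 entries, of which 664 name more than 1 symbol. Positions are as deposited. Depth is unknown: low values gave a relative depth of 0.79 to 1.00 with only 30.0% to 41.3% of ratios in step, so that no count test was run.

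Genes that reached 1 FPKM in 3 or more libraries were tested. After adding 1 FPKM and taking log2, 1 model of 9 groups was fitted to the 34 libraries (limma 3.58.1, R 4.3.3), with moderated variances that follow a trend. List members are described by counts and medians, with no test of a list. Named are the 12 largest rises and falls with a higher mean of at least 10 FPKM and no overlap, up to 4 members per list with the smallest adjusted p, further list members, and set genes such as Pou5f1 and T. A few genes that these rules name are not reported here. The members and the 41 lists were chosen with earlier results of these data known. The fit was tested on simulated data. In these, 50 of 50 genes were called at each change of -2, -1.5 and 1.5 on the log2 scale. At a change of 2, 49 of 50 were called, and of 14395 unchanged genes 0 were called. The simulated noise was independent between libraries, with no effect of project or culture. Only genes with a day 2 mean of at least 2 on the log2(FPKM + 1) scale were changed. Recovery of genes with lower day 2 values was not tested. The alternatives tried were other pseudocounts, filters and scalings, fewer groups, projects, blocks and libraries left out. A fit without 1 outlying day 3 library and the list counts with libraries left out were chosen after seeing the data. Same-numbered libraries had correlations of deviations of 0.0942, -0.102 and 0.0486, and libraries dated 2 days apart, as in 1 culture course, 0.0942, 0.127 and 0.0116. The labels do not state shared courses, and neither scheme was over 0.1 in every pair, so that no pairing was used.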

Additional observations from a re-analysis of the deposited data

Results flagged for a closer look

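Among 163 sets of 5 day 2 values, 16 had a library far from the other 4, with a gap above 0.71 of the range; chance gives about 1 in 20, and for 9 of the 16 the library was day 2 replicate 2. In that library Trh was the highest at 47.9 FPKM as were Mvd at 139 FPKM and Cldn4 at 92.0 FPKM. Dnmt3a was the lowest at 68.4 FPKM, Gm10324 at 19.2 FPKM, Rpl39l at 46.4 FPKM, Tdrd12 at 18.0 FPKM, Tex19.1 at 32.8 FPKM and Nodal at 55.2 FPKM. Without replicate 2, Trh, Cldn4, Dnmt3a, Gm10324, Rpl39l, Tdrd12 and Tex19.1 were called in the same direction, Mvd (-0.966) was not called, and Nodal was called in neither case. The cause was not tested.

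In day 2 replicate 1, Apela was the highest at 126 FPKM, Axin2 the lowest at 2.32 FPKM and Foxa2 the lowest at 0.158 FPKM. In day 2 replicate 4, Ascl2 was the highest at 7.09 FPKM, Chrd the highest at 5.18 FPKM and Neurod1 the lowest at 3.47 FPKM. In day 2 replicate 3, Tbx6 was the highest at 0.795 FPKM.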

How the results depend on the processing

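The main counts were 962 genes called, 395 higher and 567 lower. With a pseudocount of 0.1 FPKM they were 2105, 862 and 1243, and with no minimum difference 5225, 2428 and 2797. The other alternatives gave 821 to 1049 calls, and no called gene reversed its direction under any of them. With each library left out in turn they ranged from 944 to 1028, 388 to 429 and 543 to 600. A replicate block by number gave 821 calls, 362 higher and 459 lower, and a replicate block by culture course 1019, 425 and 594 (pairs as described with the processing). Of the 962 main calls, 769 were kept with the block by number and 909 with the block by culture course. Within project A, 0 G1 inhibitors, 0 hypoxia genes, 0 imprinted genes and 0 blood and endothelial genes fell, and within project B 0 retinoic acid genes and 1 cadherin or transition gene fell and 1 FGF gene rose. The difference in the X to autosome ratio, -0.0435, was not past the threshold of the permutation test with all 8 libraries. It was 0.0033 with genes of a mean of at least 1 FPKM over the 8 libraries and 0.0191 with 5 FPKM in 3 libraries. Both had the opposite sign and were not past the threshold. With a library left out it lay between -0.0830 and -0.0206, and within project B it was -0.0768. The libraries left there are too few for the permutation test to reach the threshold, so only the size is given. The cause of these shifts was not tested. Depth is unknown, arms of 3 and 5 libraries limit the precision, and within project A the lone day 4 library is assumed to vary like the other groups.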

Other observations

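Of 13 genes of the amino acid response, 0 were called by limma and 5 had an unadjusted p under 0.05 (38.5%, beside 44.1% of all genes tested), with a median difference of -0.58. Without day 2 replicate 1, 2 of them were called lower. Of 14 hypoxia genes, Ndrg1 rose from 3.14 ± 0.976 to 10.1 ± 4.32 FPKM, and Bnip3 and Ddit4 fell, Ddit4 from 105 ± 37 to 42.3 ± 5.27 FPKM. Bnip3 was not called without day 4 replicate 3, with a difference of -0.993 and a limma adjusted p of 0.0576. Of 15 respiratory chain genes, 0 were called by limma and 4 had an unadjusted p under 0.05 (26.7%). Of 17 imprinted genes, Nnat rose from 8.21 ± 2.04 to 23.6 ± 3.03 FPKM and Cdkn1c fell from 62.7 ± 27.2 to 13.4 ± 2.82 FPKM, in which the day 2 libraries ranged from 26.8 to 96.8 FPKM. Of 5 genes of X inactivation, 0 were called by limma and 2 had an unadjusted p under 0.05, a share below that of all genes tested.

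Of 12 blood and endothelial genes, Etv2, a factor of early blood and vessel progenitors, rose from 3.05 ± 0.848 to 8.33 ± 0.494 FPKM, and Cd34 and Pecam1 fell. Of 15 genes listed for epithelial junctions, the 2 that rose were the keratins Krt8 and Krt19. Cldn4 fell, from 61.8 ± 17.6 to 23.1 ± 6.75 FPKM. Of 17 genes of laminins, collagens and integrins, Itgb5 rose from 24.1 ± 4.05 to 55.6 ± 4.85 FPKM, and Nid2 and Fn1 fell.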
